A study of Homo sapiens with 4 samples.

Results

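Messenger RNAs of the transcription factors YAP1, WWTR1 (TAZ), TEAD1, TEAD3 and TEAD4 and of 5 of their target genes, CTGF, CYR61, ANKRD1, AMOTL2 and AJUBA, were measured in control and PAK1-depleted MCF10A.B2 cells. These 10 genes were chosen by name from 27193 gene names on the array, with earlier results of these data known. AJUBA was found under its older symbol, JUB, and the other 9 under their own symbols. MCF10A.B2 is an established line of MCF10A human breast epithelial cells that carries a chemically activatable form of Her2. The arrays comprised 2 samples of control cells, labelled Pak1 wild type, and 2 samples of cells with a Tet-inducible shRNA against PAK1, labelled Pak1 deficient. All 4 samples were grown with 5% horse serum, starved of serum for 3 h and then given the crosslinker AP1510 for 15 min, so no sample without activated Her2 or with a non-targeting shRNA was analysed here. The methods describe the controls as wild-type cells, without naming an uninduced shRNA. The series text speaks of tumor-derived cells from 2 tumors in each group, where the sample labels and the methods give the cell line. The sources thus differ on whether the samples of a group had separate origins, and p-values measure only the spread between these samples.

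YAP1 and TAZ are transcriptional co-activators without a DNA-binding domain of their own, and they reach their target genes through the TEAD family of DNA-binding proteins. The Hippo kinases MST1/2 and LATS1/2 phosphorylate YAP1 and TAZ, which keeps them in the cytoplasm or sends them for degradation. In epithelial cells this pathway responds to cell contact, polarity and tension of the actin cytoskeleton, and mammary epithelial cells are a classic model for TAZ. PAK1 is a kinase downstream of Rac and Cdc42 that acts on the cytoskeleton and phosphorylates merlin, the product of NF2, which lies upstream of the Hippo kinases.

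Each member was read by 1 probe of 60 bases, and the factors belong to families of related genes, so the probes of close relatives are shown. In the first pair the capitals mark the bases that the YAP1 and WWTR1 probes share where their ends are aligned, 24 of 45 bases (53.3%). In the second pair they mark the bases shared by the probes of TEAD4 and of TEAD2, the family member outside the chosen genes, 32 of 35 aligned bases (91.4%). The probes lie at chr11:102100584-102100643 (plus strand) for YAP1, chr3:149238593-149238652 (minus strand) for WWTR1, chr12:3149391-3149555 (plus strand, a span longer than the probe) for TEAD4 and chr19:49845695-49845754 (minus strand) for TEAD2, all in hg19.
YAP1: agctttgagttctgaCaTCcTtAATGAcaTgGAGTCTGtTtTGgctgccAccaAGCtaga
WWTR1: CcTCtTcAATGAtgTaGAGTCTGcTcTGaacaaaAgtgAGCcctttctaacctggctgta
TEAD4: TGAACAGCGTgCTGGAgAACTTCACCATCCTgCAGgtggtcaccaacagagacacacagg
TEAD2: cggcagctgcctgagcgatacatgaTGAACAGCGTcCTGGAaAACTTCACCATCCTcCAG
The TEAD4 and TEAD2 probes differed at 3 of the aligned bases, and whether TEAD2 transcripts reach the TEAD4 probe was not tested.

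TEAD proteins bind DNA with the core CATTCC, which reads GGAATG on the opposite strand. Both letter strings were searched in the 250 bases before each RefSeq gene start of GRCh38.p14, of which 7 member genes had 10 windows. CYR61, TEAD1 and TEAD4 had no window in the reference used, so their promoters were not searched. The windows of CTGF and ANKRD1 held more than 1 match and are shown whole, with the matches in capitals. The CTGF window, at chr6:131951373-131951622 (minus strand), held 3 matches, which began 169, 104 and 95 bases before the start. The ANKRD1 window, at chr10:90921088-90921337 (minus strand), held 2, at 220 and 128 bases, and between them a match to the AP-1 motif TGANTCA at 195 bases.
CTGF: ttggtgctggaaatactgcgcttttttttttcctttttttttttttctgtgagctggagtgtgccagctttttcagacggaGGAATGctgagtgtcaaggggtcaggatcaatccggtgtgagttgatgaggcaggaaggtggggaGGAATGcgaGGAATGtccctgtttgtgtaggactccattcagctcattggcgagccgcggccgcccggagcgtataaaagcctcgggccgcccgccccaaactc
ANKRD1: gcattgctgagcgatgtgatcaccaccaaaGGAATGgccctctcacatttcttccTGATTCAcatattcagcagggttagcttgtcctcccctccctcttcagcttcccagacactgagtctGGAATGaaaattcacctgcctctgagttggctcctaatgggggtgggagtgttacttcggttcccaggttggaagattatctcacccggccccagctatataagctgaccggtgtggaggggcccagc
Among 35116 RefSeq windows of the same length, 11.9% held at least 1 TEAD match, 0.94% at least 2 and 0.0826% at least 3, and 6.57% held an AP-1 match. One match each was found for AMOTL2 (second start, chr3:134374499-134374528, minus strand, 69 bases before the start), AJUBA (second start, chr14:22976884-22976913, minus strand, 59 bases) and YAP1 (chr11:102110273-102110302, plus strand, 162 bases), and these are shown with 12 bases on either side.
AMOTL2: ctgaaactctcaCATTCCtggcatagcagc
AJUBA: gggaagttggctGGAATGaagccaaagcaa
YAP1: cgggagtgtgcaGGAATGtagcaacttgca
No match was found in the windows of TEAD3 and WWTR1. The arrays hold no measure of binding at these letters, which serve here as a description of the genes whose transcript levels follow.

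Expression was recorded as the fluorescence of each spot, and levels are given as normalized log2 intensity, so that a difference of 1 is a 2-fold difference. A level is compared between arrays for 1 probe and not between probes. PAK1, the target of the shRNA, read 11.19 and 11.27 in the 2 control samples and 10.45 and 10.52 in the 2 PAK1 shRNA samples. Both shRNA samples lay below both controls, with 59.5% of the control level left (log2 fold change -0.75, SE 0.08, limma adjusted p = 0.00018 after Benjamini-Hochberg). The comparison covered 22022 genes, of which 62.9% passed an adjusted p of 0.05 in either direction, 31.1% higher and 31.8% lower in PAK1 shRNA cells. The quartiles of all fold changes were -0.40 and 0.36 on the log2 scale, with a median of 0.02. The arrays of the shRNA cells were dimmer before normalization, with median spot intensities of 326.1 and 318.7 against 500.9 and 383.5 in controls. Between 78.9% and 83.1% of probes were well above background. All 4 arrays shared 1 slide, on which controls took positions 1 and 2 and shRNA samples 3 and 4, so that position and group cannot be told apart.

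All 8 epithelial markers examined (the basal genes KRT5, KRT14, KRT17, KRT6A, TP63 and CDH3, and the general epithelial genes CDH1 and EPCAM) were well above background on all 4 arrays. These are genes of the breast epithelial type that the labels give. Their summed normalized intensity was 399300 and 359300 in controls and 335300 and 334400 in shRNA samples, with 3 higher and 4 lower. KRT5, KRT14, KRT17 and TP63 fell, at log2 fold changes of -1.14, -0.96, -0.72 and -1.13, KRT6A, CDH1 and CDH3 rose by 0.30, 0.98 and 0.90, and EPCAM was at -0.06 (limma adjusted p = 0.59). Of 6 stromal markers, COL1A1, DCN and LUM were well above background on every array and rose, PDGFRB fell, and COL1A2 and COL3A1 were at background on every array. The summed intensity of the 4 measured stromal markers was 4710 and 3954 in controls and 8018 and 7810 in shRNA samples. The 5 blood and endothelial markers were all scored well above background at levels between 7.01 and 8.87, with sums of 1293 and 1349 in controls and 1161 and 1126 in shRNA samples. Of these PECAM1 fell by 1.56 on the log2 scale, and on all 3 of its probes, VWF rose by 0.37, and PTPRC, CD3E and CDH5 were not called. The part of these markers in the results that follow was not tested.

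Transcripts of the factors and target genes were mostly more abundant in PAK1 shRNA cells. Of the 10 genes, 9 were tested and 7 rose past the threshold (77.8%, against 31.1% of all genes tested that rose), none fell, and YAP1 and CTGF were not called. ANKRD1 was at background on every array and had no test. Since the genes were chosen with earlier results of these data known, the share that rose is a description and no independent test. Called members ran from TEAD4 at 1.18-fold to AMOTL2 at 2.95-fold, and the median over the 9 tested was 0.51 on the log2 scale. In 8 of 9 both shRNA samples lay above both controls, a separation in one or the other direction that 81.7% of all genes tested also showed. For any 1 gene, 2 samples against 2 allow no exact permutation p under 0.333. The calls thus rest on a model of the variance, which limma pooled over all genes. An unpaired t-test without that pooling called 5 of the 7.

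**Figure D1:**
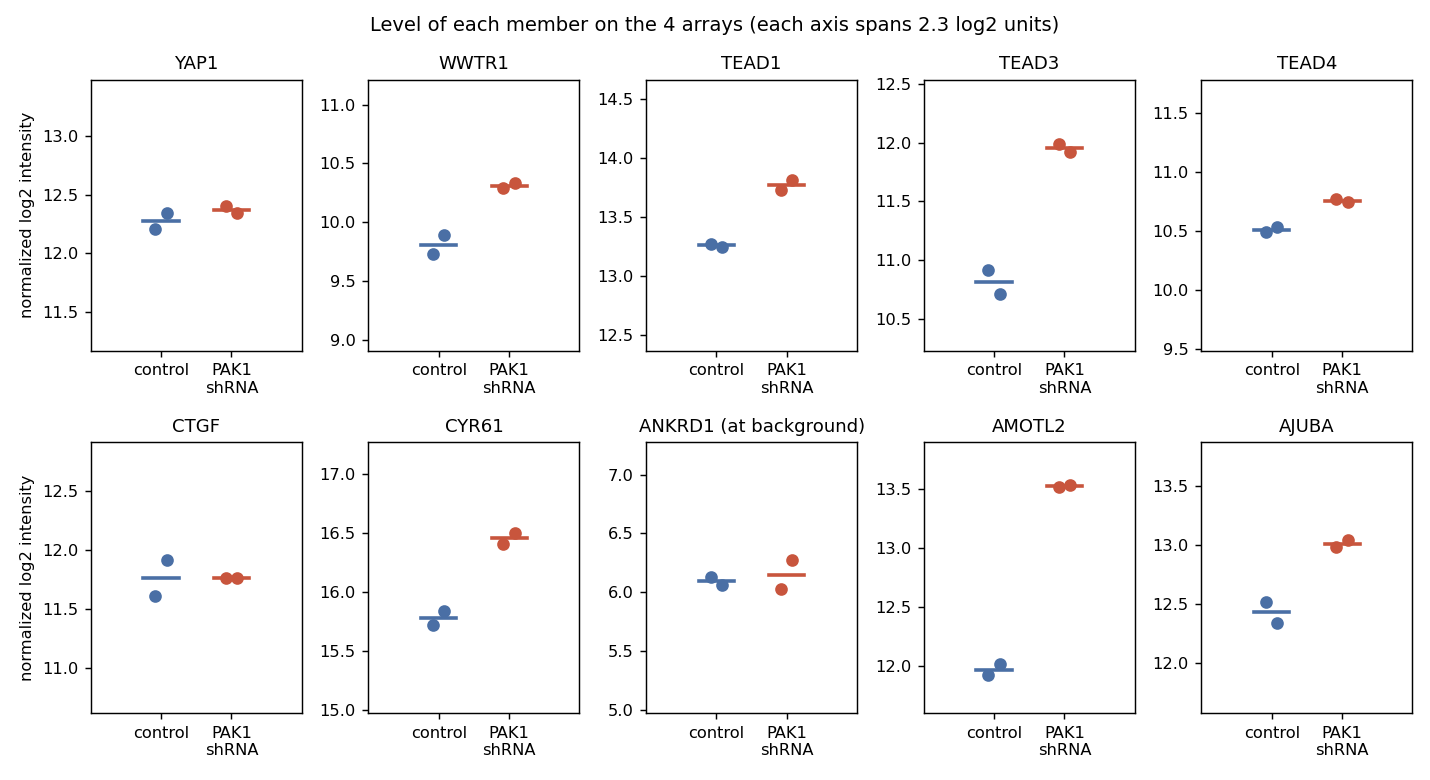
Normalized log2 intensity of each of the 10 genes on the 4 arrays. Points are single arrays (blue, 2 control; red, 2 PAK1 shRNA) and bars the mean of a group, with every axis spanning the same log2 range. TEAD3 and AMOTL2 separate most widely, CTGF overlaps, and ANKRD1 is at background on all 4 arrays.

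Of the co-activators, WWTR1 was called and YAP1 was not. YAP1 was printed in 10 spots on each array, whose averages were 12.21 and 12.34 in controls and 12.40 and 12.34 in shRNA samples. The second sample of either group was almost equal, and the gap between the groups was smaller than that between the controls. Single YAP1 spots on the first control array ranged from 11.95 to 12.49 (SD 0.185). The log2 fold change of YAP1 was 0.10 (95% interval -0.10 to 0.29, limma adjusted p = 0.34 after Benjamini-Hochberg), which allows at most a small rise or fall of its transcript. Before normalization the YAP1 spots were dimmer in shRNA samples, 4424 and 4281 against 6288 and 5387 in controls.

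WWTR1, which encodes TAZ, was read at 9.73 and 9.89 in controls and 10.29 and 10.33 in shRNA samples. Both shRNA samples were the higher, and the gap between groups was larger than the gap within either. The increase was 1.42-fold (log2 fold change 0.50, 95% interval 0.30 to 0.71, limma adjusted p = 0.002 after Benjamini-Hochberg). Compared with YAP1, the log2 change of WWTR1 was 0.41 larger. The exact permutation test of that difference gave p = 0.333, the smallest that 2 against 2 samples allow.

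Of the TEAD genes, which encode the DNA-binding partners, TEAD3 rose the most. Its probe (chr6:35441520-35441579, minus strand, hg19) read 10.92 and 10.71 in controls and 11.99 and 11.92 in shRNA samples. The groups stood more than 1 log2 unit apart, with both shRNA samples high. TEAD3 increased 2.20-fold (log2 fold change 1.14, 95% interval 0.91 to 1.36, limma adjusted p = 6.4e-05 after Benjamini-Hochberg). TEAD1, the family member long known as TEF-1 (chr11:12965225-12965284, plus strand, hg19), read 13.27 and 13.25 in controls and 13.73 and 13.81 in shRNA samples. Control samples of TEAD1 were nearly equal and both shRNA samples lay above them. The increase of TEAD1 was 1.43-fold (log2 fold change 0.51, 95% interval 0.33 to 0.69, limma adjusted p = 0.00096 after Benjamini-Hochberg). The log2 change of TEAD3 exceeded that of TEAD1 by 0.62, again with the smallest exact p of 0.333.

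TEAD4 moved little. It read 10.50 and 10.53 in controls and 10.77 and 10.75 in shRNA samples, which puts both shRNA samples slightly above both controls. The 1.18-fold difference (log2 fold change 0.24, SE 0.07, 95% interval 0.07 to 0.42) passed the threshold with a limma adjusted p of 0.023 after Benjamini-Hochberg. This call depended on the scaling and on each single array. Under median centring the TEAD4 change was 0.13, with a median of 0.14 over all genes, and no longer passed (limma adjusted p = 0.21). Leaving out any 1 of the 4 arrays raised its limma adjusted p to between 0.051 and 0.10. TEAD2, whose probe shares most of its aligned bases with that of TEAD4, read 7.89 and 7.84 in controls and 7.66 and 7.71 in shRNA samples. Its log2 fold change of -0.18 did not pass the threshold (limma adjusted p = 0.07).

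**Figure D2:**
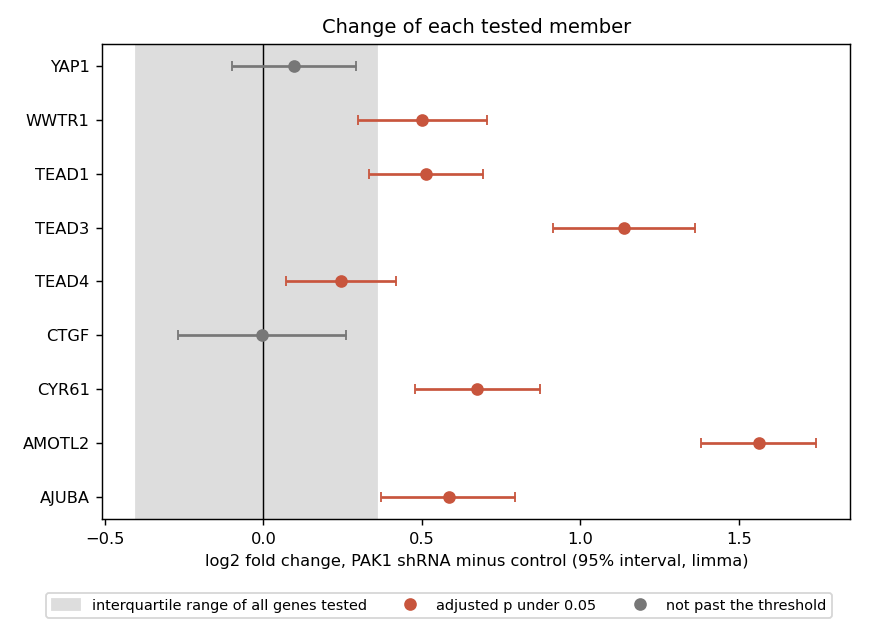
Log2 fold change of the 9 tested genes, PAK1 shRNA minus control, with limma's 95% interval. Red points passed an adjusted p of 0.05 and grey points did not, and the grey band covers the interquartile range of all genes tested, -0.40 to 0.36. YAP1, TEAD4 and CTGF lie inside the band, AMOTL2 and TEAD3 far to its right.

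CTGF and CYR61 encode related secreted matricellular proteins, now named CCN2 and CCN1, and are the target genes most often used to read YAP1 and TAZ activity. CYR61 was called and CTGF was not. CYR61 (chr1:86048953-86049012, plus strand, hg19) read 15.73 and 15.84 in controls and 16.41 and 16.51 in shRNA samples. Both shRNA samples of CYR61 were high and the groups were well apart. CYR61 increased 1.60-fold (log2 fold change 0.68, 95% interval 0.48 to 0.87, limma adjusted p = 0.00041 after Benjamini-Hochberg). Its spots were among the brightest, and on all 4 arrays the signal had been scaled up from a scan at low gain, with no spot saturated.

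CTGF (chr6:132270130-132270189, minus strand, hg19), whose promoter window held the 3 TEAD matches, read 11.62 and 11.92 in controls and 11.76 and 11.77 in shRNA samples. The 2 shRNA values fell between the 2 control values, and the groups overlapped. Before normalization the CTGF spot was dimmer in shRNA samples, 2908 and 2892 against 4221 and 4110 in controls. The log2 fold change of CTGF was -0.00 (SE 0.11, 95% interval -0.27 to 0.26, limma adjusted p = 0.98), so a change larger than about 0.27 on the log2 scale in either direction lay outside the interval. Its sign depended on the control samples and on the scaling: the change was 0.15 without control replicate 2 and -0.15 without control replicate 1. The log2 change of CYR61 exceeded that of CTGF by 0.68. Relative to its control mean, CYR61 minus CTGF stood at 0.095 and -0.095 in controls and 0.633 and 0.725 in shRNA samples. The exact permutation p was 0.333, the smallest that 2 against 2 samples allow, so that test could not decide whether the 2 genes differed.

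ANKRD1, a nuclear ankyrin-repeat protein known from muscle, is the third classic readout of YAP1 and TAZ. It read 6.13 and 6.06 in controls and 6.03 and 6.27 in shRNA samples (chr10:92672562-92672621, minus strand, hg19). Its raw spot intensities were 58.97 and 50.52 in controls and 51 and 61.7 in shRNA samples, beside local backgrounds of 46 and 45, and 47 and 46.5. The spot was not well above background on any array, so no fold change is given, and neither group stood above the other.

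AMOTL2 and AJUBA are targets that also act back on the pathway: AMOTL2, an angiomotin family protein, holds YAP1 in the cytoplasm and at junctions, and the LIM protein AJUBA inhibits LATS kinases. AMOTL2 (chr3:134074742-134074801, minus strand, hg19) read 11.92 and 12.01 in controls and 13.52 and 13.53 in shRNA samples. The gap between its groups was the widest of the 9 genes tested, and replicates were close. AMOTL2 increased 2.95-fold (log2 fold change 1.56, 95% interval 1.38 to 1.74, limma adjusted p = 7.2e-06 after Benjamini-Hochberg). In raw intensity, too, its spot was brighter in shRNA samples, 9983 and 10180 against 5212 and 4386. The raw spots of TEAD3 and CYR61 were also brighter there, while those of WWTR1, TEAD1 and AJUBA overlapped between groups. The TEAD4 spot was dimmer, at 1428 and 1392 in shRNA samples against 1948 and 1565 in controls. The log2 change of AMOTL2 exceeded that of CTGF by 1.57 (exact permutation p = 0.333; 4 such differences between genes were computed, all at this smallest p, which adjustment over them leaves as it is).

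AJUBA (chr14:23441247-23441306, minus strand, hg19) read 12.52 and 12.34 in controls and 12.98 and 13.04 in shRNA samples. Both shRNA samples were above both controls, which differed from each other by more than the shRNA samples did. The increase of AJUBA was 1.50-fold (log2 fold change 0.58, 95% interval 0.37 to 0.80, limma adjusted p = 0.0012 after Benjamini-Hochberg). The local background of its spot was 72 on the second control array, against 39 to 45 on the others, beside raw intensities of 5504 to 7809. The methods name limma for the arrays and an unpaired t-test for the study in general. With the unpaired t-test AJUBA and WWTR1 missed the threshold after Benjamini-Hochberg, at adjusted p-values of 0.056 and 0.058 from 2 samples a group, where no exact test could pass.

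**Figure D3:**
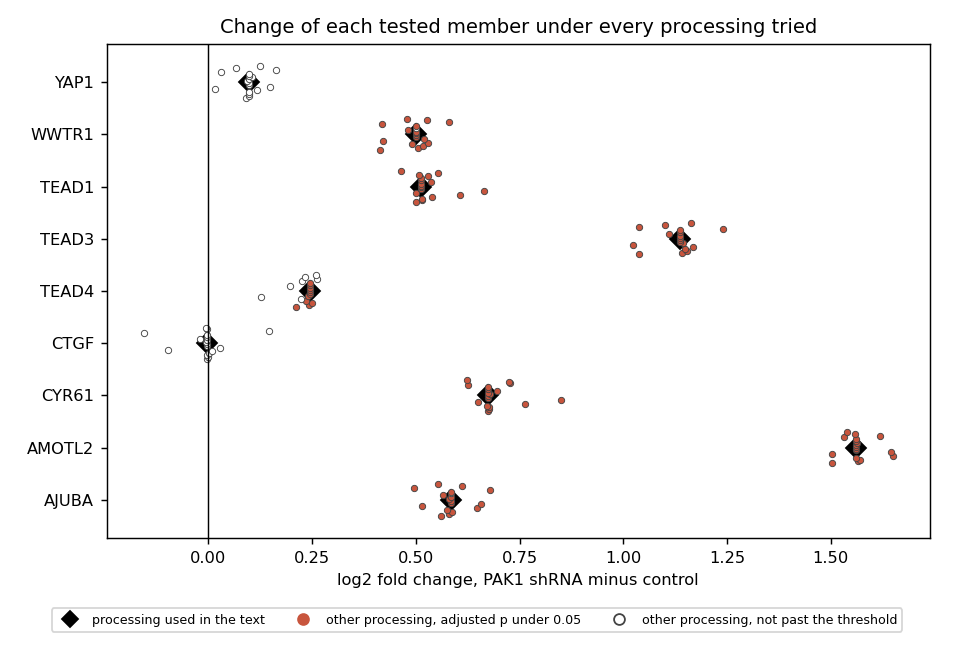
Log2 fold change of each tested gene under the processing used in the text (black diamonds) and under 18 other ways of processing (circles, filled red where the adjusted p was under 0.05). TEAD1, TEAD3, CYR61 and AMOTL2 passed under all 18, WWTR1 and AJUBA under 17, TEAD4 under 11, and YAP1 and CTGF under none, with CTGF on both sides of 0.

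The kinases that restrain YAP1 and TAZ were examined next, in a list of 40 Hippo pathway genes outside the 10. The list was drawn up with earlier results of these data known. Of the 40, 38 were tested and 28 were called (73.7%, against 62.9% of all genes). In direction, 21 were higher and 7 lower, and the median log2 fold change over the 38 was 0.26. All 7 genes of the core cassette were called by their brightest probe (100%, against 62.9% of all genes), 6 higher and 1 lower. The probes of MOB1B, counted among the 6, disagreed. SAV1, the scaffold of the MST kinases, read 10.28 and 10.50 in controls and 11.35 and 11.48 in shRNA samples, an increase of 1.02 on the log2 scale (limma adjusted p = 0.00016). STK4 and STK3, which encode MST1 and MST2, rose by 0.70 and 0.35, and LATS1 and LATS2 by 0.40 and 0.46. The second probes of STK4 and LATS1 gave only 0.25 and 0.10. STK3 missed the threshold under median centring (0.23, limma adjusted p = 0.06), and was at 0.29 without PAK1 shRNA replicate 2. By the brightest probes, STK4 rose more than TEAD1 and WWTR1 (0.51 and 0.50), and STK3, LATS1 and LATS2 rose less. The LATS co-activator MOB1A fell by 0.49. MOB1B gave 0.47 with its brightest probe and -0.38 and -0.52 with the others, so that no direction can be given for it. With the unpaired t-test STK3, LATS2, MOB1A and MOB1B missed the threshold after Benjamini-Hochberg, at adjusted p-values of 0.081, 0.12, 0.14 and 0.057.

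NF2, whose product merlin activates the LATS kinases, went the other way. It read 13.80 and 13.96 in controls and 12.60 and 12.51 in shRNA samples. Both shRNA samples were low, and the fall was -1.32 on the log2 scale with one probe and -1.10 with the other (limma adjusted p = 2.5e-05 for the brighter). The kinase TAOK2, which phosphorylates MST1/2, rose by 0.82 with its brighter probe and differed by 0.09 with its other. In all, 5 of 8 upstream activators rose and 1, NF2, fell, so that 75% were called, near the 62.9% of all genes.

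Among genes for turnover of YAP1 and TAZ, BTRC, the F-box protein that recognises phosphorylated YAP1 and TAZ, read 9.72 and 9.58 in controls and 8.35 and 8.28 in shRNA samples, lower in both (log2 fold change -1.33, limma adjusted p = 2e-05). The casein kinases CSNK1E and CSNK1D, which complete the phosphorylated degradation signal, rose by 1.18 and 0.82. Of 5 further proteins that bind YAP1, TAZ or LATS, 3 were called, all lower (60%, against 62.9% of all genes called and 31.8% lower). These were WTIP, a relative of AJUBA, at -0.51, the phosphatase PTPN14 at -0.35, and LIMD1 at -0.29 with its brighter probe and 0.13 with its other. PTPN14 missed the threshold without control replicate 1 (-0.29, limma adjusted p = 0.056) and without PAK1 shRNA replicate 2 (-0.27, limma adjusted p = 0.086). Of 7 polarity and cadherin genes 3 were called higher and 1 lower (57.1%, against 62.9% of all genes). The second probe of FAT4 was at -0.02. VGLL4, which competes with YAP1 for TEAD, rose by 0.64 with its brighter probe, and its other probe differed by 0.22. VGLL3 was at 0.07 (limma adjusted p = 0.47). VGLL1 was at background on every array, and VGLL2 was well above it on 1 control array alone, so neither was tested.

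**Figure D4:**
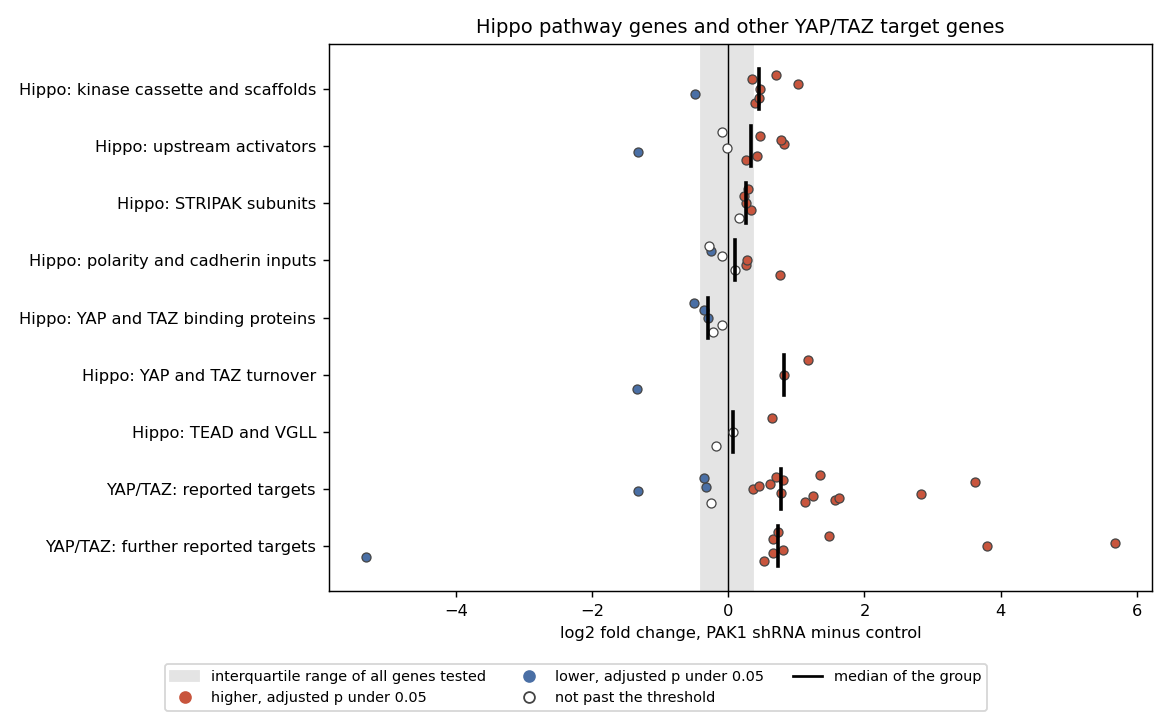
Log2 fold change of 38 Hippo pathway genes in 7 groups and of 26 further YAP/TAZ target genes in 2 groups, PAK1 shRNA minus control. Each point is a gene (red or blue, higher or lower past an adjusted p of 0.05; white, not past it), black bars are group medians, and the grey band covers the interquartile range of all genes tested. The target genes have a median of 0.75 with INHBA at 5.68 and BIRC5 at -5.32, while most Hippo pathway genes lie within 1 log2 unit of 0.

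Beyond the 5 targets chosen, 27 other reported YAP/TAZ target genes were listed from general knowledge, with earlier results of these data known. Shares called in this list are therefore a description and no independent test. Of the 27, 2 genes, LATS2 and PTPN14, also stand in the Hippo list. Of the 26 tested, 25 were called (96.2%, against 62.9% of all genes), 21 higher and 4 lower, with a median log2 fold change of 0.75. At least 2-fold changes past the threshold numbered 10 higher and 2 lower. INHBA, a subunit of activin A, read 6.75 and 6.89 in controls and 12.16 and 12.83 in shRNA samples, the largest rise of the list (log2 fold change 5.68, limma adjusted p = 2.2e-06). The control level of INHBA was dim, and its change ran from 4.35 with normexp fitted on all spots to 7.05 when processed signals were scaled to their 75th percentile. EDN1, which encodes the peptide endothelin-1, rose by 3.80, NT5E, the surface nucleotidase CD73, by 3.63, and F3, tissue factor, by 2.83, all with both shRNA samples far above both controls. These 4 rises exceeded that of AMOTL2, while CYR61 and AJUBA lay near the middle of the list.

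The largest fall was that of BIRC5, which encodes survivin, a protein of the dividing cell as well as an inhibitor of apoptosis. It read 15.07 and 15.20 in controls and 9.94 and 9.69 in shRNA samples (log2 fold change -5.32, limma adjusted p = 3.4e-07). FOXF2, a forkhead transcription factor, fell by 1.32 on the log2 scale (-0.83 with normexp fitted on all spots) and PTPN14 by 0.35. IGFBP3, which binds insulin-like growth factors, was at -0.32 with a limma adjusted p of 0.041 and missed the threshold under 7 of 18 other ways of processing, among them without control replicate 1 (-0.20) and without PAK1 shRNA replicate 1 (-0.23). MYC gave 0.66 with its brighter probe and -0.14 with its other, and ARHGEF17 did not pass (-0.25, limma adjusted p = 0.12).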

How the data were processed

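The arrays were 1-colour (Cy3) Agilent human arrays. The authors deposited spot intensity as written by Agilent Feature Extraction (version 9.5.3.1 in the file headers), without normalization between arrays, with probe positions in hg19. A table of processed log2 values, also deposited by the authors, was normexp corrected and quantile normalized per the methods. Its column medians were 9.42, 9.42, 9.40 and 9.40, it was not centred by gene, and each column correlated best with its own array (r of at least 0.999); it was used as an alternative, and its offset is not given in the sources used here.

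Intensities were corrected with normexp (offset 50), fitted without 522 to 651 spots per array whose local background was flagged as an outlier, since a fit on all spots gave background means of -666.3 and -739.7 on the control arrays against -10.7 and -10.23 on the others. Control spots and flagged features were dropped, log2 values were quantile normalized, and replicate spots were averaged. A probe was kept where both arrays of either group scored it well above background, and each gene was read by its brightest kept probe. limma 3.58.1 (lmFit, eBayes; R 4.3.3) was run over 22022 genes, and p-values were adjusted by Benjamini-Hochberg with a threshold of 0.05. The script was tested on simulated data. The number of arrays limits the precision.

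Genes named were the 10 members, PAK1, the core Hippo cassette with NF2, TEAD2 and the VGLL genes, and the 4 largest rises and falls of each list among genes called and well above background on all arrays; MYC, ARHGEF17, LIMD1 and FAT4 were added after their values were seen. Members and lists were chosen with earlier results of these data known. Older symbols were matched, and promoter windows taken, from RefSeq tables of GRCh38.p14.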

Additional observations from a re-analysis of the deposited data

How the results depend on the processing

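Each result was recomputed under 18 alternatives, and counts of calls also under 2 stricter thresholds. Of 180 values for the tested members and PAK1, 167 stayed on the same side of 0 and of the threshold. WWTR1 (0.50, adjusted p = 0.058) and AJUBA (0.58, adjusted p = 0.056) missed it with the unpaired t-test. TEAD4 missed it at 0.22 under scaling to the 75th percentile of the processed signal, at 0.13 under median centring, at 0.20 in the deposited values, and at 0.23 to 0.26 when 1 array was left out. CTGF turned positive at 0.00057 with the median signal, 0.0089 with the 75th percentile and 0.029 with cyclic loess, and ran from -0.15 to 0.15 when 1 array was left out. Neither it nor YAP1 was called under any. MOB1B turned to -0.14 as a mean over its probes. The t-test left 4418 genes higher and 4749 lower, 41.7% of the genes it tested. With it 14 Hippo genes were higher and 3 lower, against 21 and 7 with limma, and 2 target genes were lower. An adjusted p under 0.01 left 15 Hippo genes higher and 4 lower, and 2 target genes lower. Requiring 2-fold left 1952 genes higher and 1967 lower, 2 members higher, 2 Hippo genes higher and 2 lower, and 10 target genes higher and 2 lower. Target genes called lower numbered 2 to 5 when 1 array was left out, 2 without control replicate 1. Median centring and the 75th percentile moved the median of all genes to 0.14 and 0.12. The replicate number as a block gave 7019 genes higher and 7084 lower and changed no member's call, and same-numbered arrays did not deviate together (r = 0.00921 over 27517 probes). The cause of these changes was not tested. With 2 arrays a group, 1 slide and a 59.5% residual PAK1 level, small changes such as that of TEAD4 are the least certain, and ANKRD1 lies below what its signal over background can show.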
